A study of Homo sapiens with 6 samples.

Results

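The genes described here are 37 genes of the Fanconi anaemia pathway and of homologous recombination, together with the kinases that signal DNA damage to them. They were chosen by gene symbol from the 24480 genes of the deposited table, and all 37 had a row there. RNA-seq was run on LN229, an established human glioblastoma line, with 3 libraries from cells transduced to overexpress LACTB and 3 from cells transduced with vector. The LACTB protein lies in mitochondria and resembles bacterial beta-lactamases, and the comparison asked which transcripts differ in glioma cells that overexpress it. The labels name no promoter, clone or time after transduction. Whether libraries of 1 group were grown as separate cultures is not stated. Each p-value sets a group difference against the spread between these libraries, estimated in part across genes, and that spread may be technical.

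Homologous recombination repairs a broken DNA molecule by copying the sister chromatid: the broken ends are trimmed to single strands, BRCA proteins prepare these strands for pairing, and further proteins help them find and invade the matching sequence. The Fanconi pathway deals with crosslinks that tie both strands together. Its core complex attaches ubiquitin to the FANCD2 and FANCI pair, which brings in nucleases, and the resulting break is handed to homologous recombination. Both processes act mainly in S and G2 phase, and many of their genes are transcribed more in cycling cells.

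Values are normalized read counts as deposited. Column totals lay between 34907394 and 35683869 in LACTB libraries and between 38049489 and 41384595 in vector libraries, and the reads behind them are unknown. LACTB itself had 4268, 4078 and 4203 normalized counts in LACTB libraries, against 458, 515 and 393 in vector libraries (log2 difference 3.21, limma adjusted p = 2.9e-14). All 8 glial and glioma markers examined reached 1 CPM, and NES did not pass. EGFR rose by 1.41 on the log2 scale, SOX2 by 1.24, VIM by 0.48, CD44 by 0.39 and GFAP by 0.70, while S100B fell by 1.22 and OLIG2 by 0.56. GFAP was scarce, at a mean of 122 in LACTB and 74.5 in vector cells. Of 5 leukocyte markers only CD68 reached 1 CPM, and the list summed to 1594 to 1698 in LACTB and 1047 to 1175 in vector libraries. Of 6 melanocytic markers, SOX10 was lower by a difference of -0.31, MITF of -1.49, PMEL of -1.91 and DCT of -5.09, the last at a mean of 57.7 in LACTB and 1776 in vector cells, and TYR was listed at 0 in LACTB and at 27.8 in vector cells. The sum of that list, 41252 to 43317 in LACTB and 48652 to 62480 in vector libraries, is mostly SOX10. The neuronal list summed to 688 to 820 in LACTB and 440 to 744 in vector libraries. In it SYT1 rose by 1.65, SNAP25 and SLC17A7 did not pass and RBFOX3 was under 1 CPM. The endothelial and epithelial list summed to 2434 to 2915 in LACTB and 5066 to 6371 in vector libraries, mostly KRT18, while PECAM1 and VWF did not pass and CDH5 and EPCAM were under 1 CPM. The part of such shifts in the results below was not tested.

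Repair genes were mostly higher in LACTB cells. Of the 37 genes, 36 passed the filter on low values, a mean of at least 1 CPM or 37.7 normalized counts, and only RAD54B did not. Of these 36, 20 were higher in LACTB cells, 2 were lower and 14 did not pass the threshold (limma across all tested genes, Benjamini-Hochberg adjusted p under 0.05). Among all 12939 tested genes 27.4% were called higher and 24.6% lower. The median log2 difference was 0.53 over the 36 genes and 0.05 over all tested genes. All 3 LACTB libraries lay above all 3 vector libraries for 24 of the 36 genes, and below them for 2. The corresponding shares of all tested genes were 31.1% and 28.7%. By the fitted log2 difference, 7 genes were called higher by at least 1 (2-fold), 9 by 1.5-fold to 2-fold and 4 by less, and 6.34% of all tested genes were called higher by at least 2-fold. Libraries hold whole cultures, so a larger share of cycling cells and more RNA per cell cannot be told apart here.

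**Figure D1:**
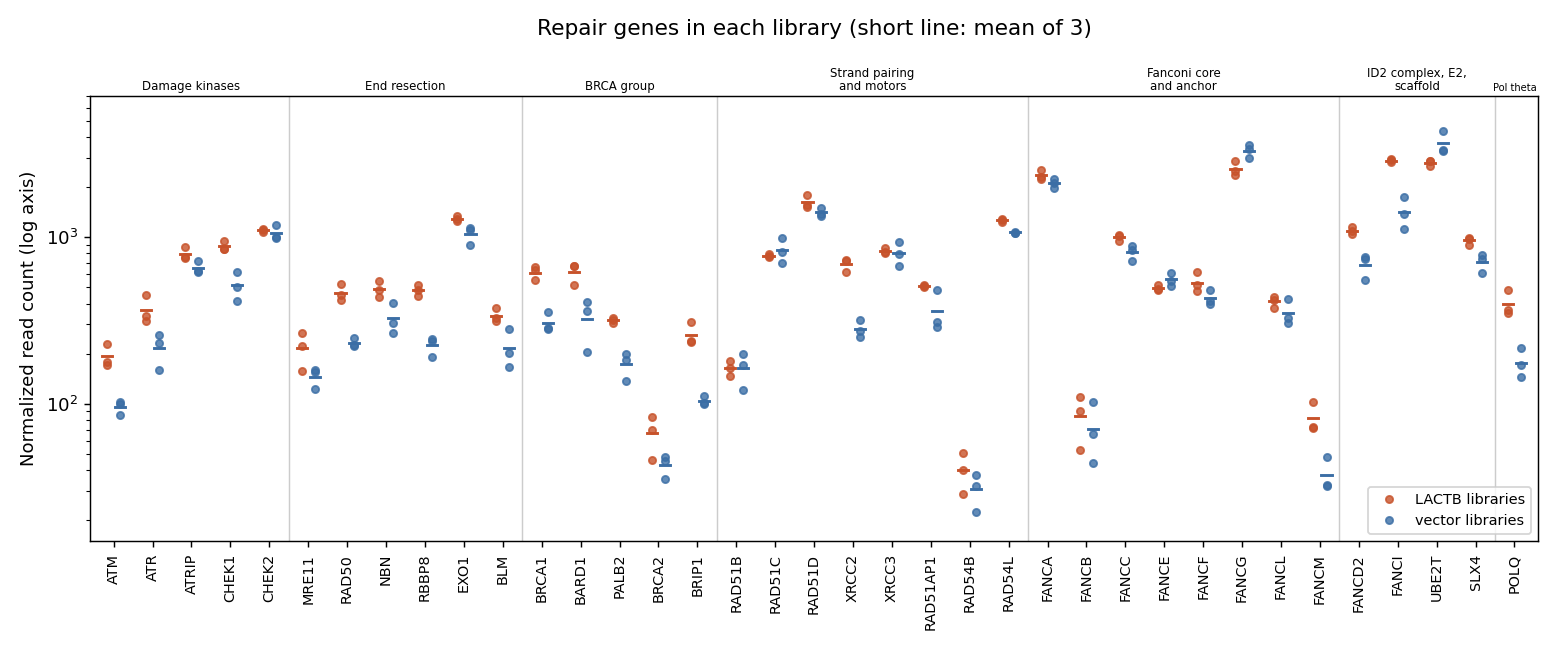
Normalized read count of each of the 37 repair genes (log axis) in the 3 LACTB libraries (left of each pair) and the 3 vector libraries (right), with a short line at the mean, grouped by role. For 24 of the 36 tested genes every LACTB point lies above every vector point, and for FANCG and UBE2T every LACTB point lies below.

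RefSeq promoter windows (GRCh38.p14) were at hand for 34 of the 37 genes and were searched for motifs known from cell-cycle promoters in the 250 bases before the annotated start, on both strands. The E2F letters TTCCCGC or TTGGCGC were in 2 of 18 windows of genes that rose (11.1%) and in 4 of 14 of genes that did not pass (28.6%), against 12.7% of the windows of all tested genes. The CHR letters TTTGAA or TTCGAA were in 16.7% of the windows of genes that rose, 7.14% of those that did not pass and 9.62% of those of all tested genes. CCAAT was in 44.4% of the windows of genes that rose, 42.9% of those that did not pass and 35.3% of those of all tested genes. Of the 2 genes that fell, the FANCG window held E2F letters and the UBE2T window held CHR and CCAAT letters. A match is a string of letters and not a shown binding site. Shown are windows of the 4 called genes with the smallest adjusted p among those that the table held, apart from BRCA1, whose whole window is annotated exon. They are 5′ to 3′ on the strand of the gene, end at the base before the RefSeq start, and have matches to these motifs in capitals. Gene positions given below are from GENCODE, whose outermost start can differ. The RBBP8 and POLQ windows lie inside the positions given for these genes. Annotated exons cover 24 bases of the XRCC2 window, 13 of RBBP8, 0 of BRIP1 and 18 of POLQ. They lie at chr7:152676142-152676391 (minus strand) for XRCC2, chr18:22933078-22933327 (plus strand) for RBBP8, chr17:61863529-61863778 (minus strand) for BRIP1 and chr3:121545989-121546238 (minus strand) for POLQ.
XRCC2: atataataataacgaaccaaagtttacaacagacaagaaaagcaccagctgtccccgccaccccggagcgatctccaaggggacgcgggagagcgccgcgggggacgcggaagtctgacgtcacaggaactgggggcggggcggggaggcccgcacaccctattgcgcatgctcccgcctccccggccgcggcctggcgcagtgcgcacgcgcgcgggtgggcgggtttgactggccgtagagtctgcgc
RBBP8: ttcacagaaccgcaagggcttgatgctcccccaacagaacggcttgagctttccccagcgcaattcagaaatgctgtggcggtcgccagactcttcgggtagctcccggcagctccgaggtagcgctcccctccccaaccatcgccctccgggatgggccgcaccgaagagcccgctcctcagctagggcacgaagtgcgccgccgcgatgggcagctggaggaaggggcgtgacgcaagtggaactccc
BRIP1: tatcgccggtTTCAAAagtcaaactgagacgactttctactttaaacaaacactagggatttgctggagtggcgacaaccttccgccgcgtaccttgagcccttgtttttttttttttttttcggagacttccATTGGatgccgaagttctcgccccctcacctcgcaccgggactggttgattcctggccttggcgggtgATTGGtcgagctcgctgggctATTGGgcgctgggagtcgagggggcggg
POLQ: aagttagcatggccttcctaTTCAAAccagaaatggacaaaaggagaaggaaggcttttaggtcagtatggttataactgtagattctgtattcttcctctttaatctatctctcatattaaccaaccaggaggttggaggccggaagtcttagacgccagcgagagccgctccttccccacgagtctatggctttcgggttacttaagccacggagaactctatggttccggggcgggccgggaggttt
The BRIP1 window holds CCAAT 3 times, each on the opposite strand (ATTGG), and 1 CHR string, also on the opposite strand (TTCAAA). The POLQ window holds 1 CHR string on the opposite strand, and the XRCC2 and RBBP8 windows hold none of the motifs.

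Among the damage kinases and the ATR partner ATRIP, 3 of 5 genes rose (60%, beside 27.4% of all tested genes). CHEK1, which halts the cycle when replication stalls (chromosome 11, 125625136 to 125676255), had 955, 849 and 854 normalized counts in LACTB libraries, against 619, 505 and 416 in vector libraries. The groups did not overlap, with a log2 difference of 0.80 (SE 0.15, limma adjusted p = 0.000185). ATM, the kinase activated by broken ends (chromosome 11, 108222484 to 108369102), had 172, 230 and 177 in LACTB libraries, against 85.4, 99.9 and 102 in vector libraries, so its mean was 2.01-fold higher. ATR, the kinase activated by single-stranded DNA, rose by 0.76 on the log2 scale. ATRIP differed by 0.28 (95% interval -0.01 to 0.57, adjusted p = 0.096), and the effector kinase gene CHEK2 by 0.06 (-0.20 to 0.32). ATRIP shares 27.9% of its exon bases with TREX1, and CHEK2 has pseudogene copies, so both values are uncertain.

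All 6 genes of end resection were higher in LACTB cells as deposited, beside 27.4% of all tested genes. With length and GC removed 33.3% of them were called higher, beside 26.9% of all tested genes. RBBP8, which encodes the resection factor CtIP (chromosome 18, 22798261 to 23026488), had 443, 520 and 483 normalized counts in LACTB libraries, against 245, 238 and 191 in vector libraries. It was the resection gene with the largest difference, 1.11 on the log2 scale (SE 0.17, limma adjusted p = 1.9e-05). RAD50, the coiled-coil subunit of the MRE11, RAD50 and NBN complex (chromosome 5, 132556019 to 132646344), had 448, 523 and 419 in LACTB libraries, against 223, 248 and 225 in vector libraries. The gap between the groups was wider than the range within either. RAD50 shares 79.7% of its exon bases with another annotated gene on the same strand, so its value may include both. NBN rose by 0.60, and the nuclease gene MRE11 by 0.53, although its groups overlapped at 222, 266 and 157 in LACTB libraries, against 122, 155 and 160 in vector libraries. BLM, a helicase that unwinds recombination intermediates, rose by 0.67, a call lost without vector library 3. The nuclease gene EXO1 rose by 0.31, and its adjusted p of 0.046 was close to the threshold, as was that of MRE11 (0.048). The MRE11 call was lost when either of LACTB libraries 1 and 2 or any vector library was left out. The EXO1 call was lost when any LACTB library or vector library 3 was left out.

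BRCA1 and 3 of its 4 partners in the list rose (80% of this group, beside 27.4% of all tested genes). BRIP1, a helicase that binds BRCA1 and is also known as FANCJ (chromosome 17, 61681266 to 61863521), had 235, 238 and 308 normalized counts in LACTB libraries, against 112, 101 and 100 in vector libraries. Its log2 difference of 1.30 (SE 0.21, limma adjusted p = 2.3e-05) was about that of XRCC2 (1.29). XRCC2 was the higher of the pair without LACTB library 3 and without vector library 2. XRCC2 was also higher with length and GC removed and with a pseudocount of 1 CPM (1.18, against 1.06 for BRIP1). BRCA1 (chromosome 17, 43044295 to 43170245) had 632, 659 and 551 in LACTB libraries, against 354, 285 and 280 in vector libraries. BARD1, its ubiquitin ligase partner, had 515, 673 and 676 in LACTB libraries, against 409, 359 and 205 in vector libraries. The vector libraries of BARD1 were spread widely, and none reached the lowest LACTB library. PALB2, which joins BRCA1 to BRCA2, rose by 0.88 on the log2 scale. BRCA2, which acts at the trimmed ends, was near the filter, with 83.8, 70 and 45.8 in LACTB libraries, against 47.9, 45.5 and 35.2 in vector libraries. The groups overlapped, and the difference of 0.59 did not pass (95% interval -0.05 to 1.24, adjusted p = 0.11), although it passed when LACTB library 3 was left out and when column totals were made equal.

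Genes of strand pairing and invasion did not move together. XRCC2 (chromosome 7, 152644779 to 152676165) had 622, 726 and 718 normalized counts in LACTB libraries, against 275, 320 and 252 in vector libraries, and its mean was 2.44-fold higher. It had the smallest adjusted p of the 36 genes (log2 difference 1.29, SE 0.16, limma adjusted p = 1.1e-06). RAD51B, RAD51C, RAD51D and XRCC3 did not pass. RAD51D, the direct partner of XRCC2 in a complex with RAD51B and RAD51C, differed by 0.21 (95% interval -0.04 to 0.46), RAD51B by 0.02 (-0.44 to 0.48) and RAD51C by -0.10 (-0.40 to 0.19). XRCC3, which pairs with RAD51C, differed by 0.07 (-0.23 to 0.36), and 76.7% of its exon bases lie opposite KLC1 exons, so without known strand handling its value is uncertain. The XRCC2 interval, 0.96 to 1.62, lies above the upper ends of these 4 intervals, but differences between genes were not tested. Of the accessory genes, RAD51AP1, which stimulates strand invasion, had 500, 515 and 512 in LACTB libraries, against 485, 311 and 289 in vector libraries. Vector library 1 stood close to the LACTB level, and the difference of 0.53 (adjusted p = 0.019) lost its call without vector library 2 or without vector library 3. The motor protein gene RAD54L had 1272, 1286 and 1240 in LACTB libraries, against 1060, 1065 and 1078 in vector libraries. The groups did not overlap, yet the difference of 0.25 did not pass (adjusted p = 0.091). RAD54B, under the filter, had 50.8, 28.9 and 40.3 in LACTB libraries, against 22.5, 32.2 and 37.1 in vector libraries, and 59.1% of its exon bases are shared with FSBP.

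Of 8 genes of the Fanconi core complex and its anchor, FANCM rose, FANCG fell and 6 did not pass. The share called higher, 12.5%, was below the 27.4% of all tested genes, of which 24.6% were called lower. FANCM, the translocase that brings the complex to DNA (chromosome 14, 45135940 to 45200890), was scarce, with 71.8, 103 and 72.1 normalized counts in LACTB libraries, against 47.8, 32.4 and 32 in vector libraries. Its vector mean of 37.4 was under the filter of 37.7, so FANCM was tested only because of its LACTB mean of 82.4. The difference was 1.12 on the log2 scale (SE 0.30, limma adjusted p = 0.0036). FANCG, an adaptor of the core complex (chromosome 9, 35073835 to 35080016), had 2852, 2375 and 2514 in LACTB libraries, against 3371, 2971 and 3578 in vector libraries. Every LACTB library was below every vector library, and the difference was -0.36 (SE 0.12, adjusted p = 0.014). That call was lost without LACTB library 2, without LACTB library 3 or without vector library 3. The other core genes differed by 0.30 for FANCF, 0.29 for FANCC, 0.28 for FANCB, 0.24 for the ubiquitin ligase subunit FANCL, 0.16 for FANCA and -0.17 for FANCE, and FANCE was called lower with quantile normalization. FANCL passed without vector library 1, and so did FANCC. Exons of FANCA, FANCL and FANCF are overlapped on the opposite strand by ZNF276, VRK2 and GAS2 over 23.6%, 18.7% and 11.3% of their bases, as are 25.1% of those of RAD54L by LRRC41, so these values are uncertain. MRE11, RBBP8, RAD51AP1 and FANCD2 have annotated pseudogene copies that could share reads.

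The pair that the core complex ubiquitinates rose, while the enzyme that carries the ubiquitin fell. FANCI (chromosome 15, 89243949 to 89317261) had 2821, 2895 and 2946 normalized counts in LACTB libraries, against 1742, 1387 and 1118 in vector libraries, a log2 difference of 1.05 (SE 0.14, limma adjusted p = 1.7e-06). FANCD2 (chromosome 3, 10026414 to 10101930) had 1041, 1094 and 1153 in LACTB libraries, against 761, 737 and 556 in vector libraries, and rose by 0.69. UBE2T, the ubiquitin-conjugating enzyme of the pathway (chromosome 1, 202331657 to 202341980), had 2861, 2679 and 2881 in LACTB libraries, against 4340, 3317 and 3362 in vector libraries. The groups did not overlap, and the difference was -0.38 (SE 0.12, adjusted p = 0.012), a call lost without LACTB library 2, with quantile normalization and with equal column totals. SLX4, a scaffold for nucleases, rose by 0.44, a call also lost without LACTB library 2. POLQ, a polymerase that joins ends by short matching sequences when homologous recombination fails (chromosome 3, 121431427 to 121546641), had 349, 484 and 367 in LACTB libraries, against 170, 215 and 145 in vector libraries. Its mean was 2.27-fold higher (log2 difference 1.18, adjusted p = 4.0e-05).

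Levels per length spanned a wide range. Per kilobase of the longest annotated transcript, UBE2T was the highest of the 37 genes, at 1873 normalized counts per kilobase in LACTB and 2450 in vector cells. FANCG came next, at 981 in LACTB and 1257 in vector cells, so the pair that fell stood at the top of the order in both groups. FANCI moved to rank 3 in LACTB cells, at 609 per kilobase, against rank 8 in vector cells, at 298. The bottom of the order was BRCA2, at 5.55 per kilobase in LACTB and 3.58 in vector cells, with FANCM at 11.6 in LACTB and 5.26 in vector cells just above it. ATM, which rose, had 14.7 per kilobase in LACTB and 7.29 in vector cells, BRIP1 had 43.1 in LACTB and 17.3 in vector cells, and POLQ had 44.2 in LACTB and 19.5 in vector cells. Levels per kilobase rest on the longest transcript and shift where a shorter one is used.

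The libraries of a group were not alike for these genes. The coefficient of variation over 3 libraries had a median of 8.44% in LACTB and 15.1% in vector cells. LACTB library 2 was the highest of its group for 16 of the 36 genes. Vector library 1 was the highest of its group for 22 genes, and vector library 3 the lowest for 22. These counts and the coefficients were not computed over all tested genes, so they are not shown to be particular to the repair genes. Taken as log2 values relative to the vector mean of each gene, the median over the 36 genes was 0.49, 0.70 and 0.48 in LACTB libraries 1, 2 and 3, against 0.15, 0.00 and -0.14 in vector libraries 1, 2 and 3. The lowest LACTB library thus stood above the highest vector library. Leaving out 1 library at a time gave 16 to 21 higher repair genes, beside 21.7% to 29.9% of all tested genes called higher.

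The differences ran with transcript length and base composition, in repair genes as in the transcriptome. In 5 equal bins of all tested genes by transcript length, the median log2 difference was -0.27 in the shortest bin and 0.46 in the longest, and by GC content it was 0.44 in the lowest bin and -0.28 in the highest. Repair transcripts were longer and poorer in GC than most: their medians were 4660 bases and 41.7% GC, against 3614 bases and 48.3% GC for all tested genes. The 20 that rose had medians of 5378 bases and 40.5% GC, and the 14 that did not pass had 3074 bases and 48.4% GC. By length, 9 of 11 repair genes rose in the longest bin, where 54.8% of all tested genes did, 6 of 9 in the fourth bin, against 34.4%, and 4 of 6 in the middle bin, against 25.2%. In the second bin 1 of 8 rose, against 14.7% of all tested genes, and in the shortest 0 of 2, against 8.1%, and both genes that fell lie in these 2 bins. By GC, 10 of 14 rose in the lowest bin, against 49.9% of all tested genes, and 9 of 12 in the second, against 40.5%. In the 3 bins of highest GC only SLX4 of 10 repair genes rose, where 25.4%, 12.6% and 8.68% of all tested genes did.

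**Figure D2:**
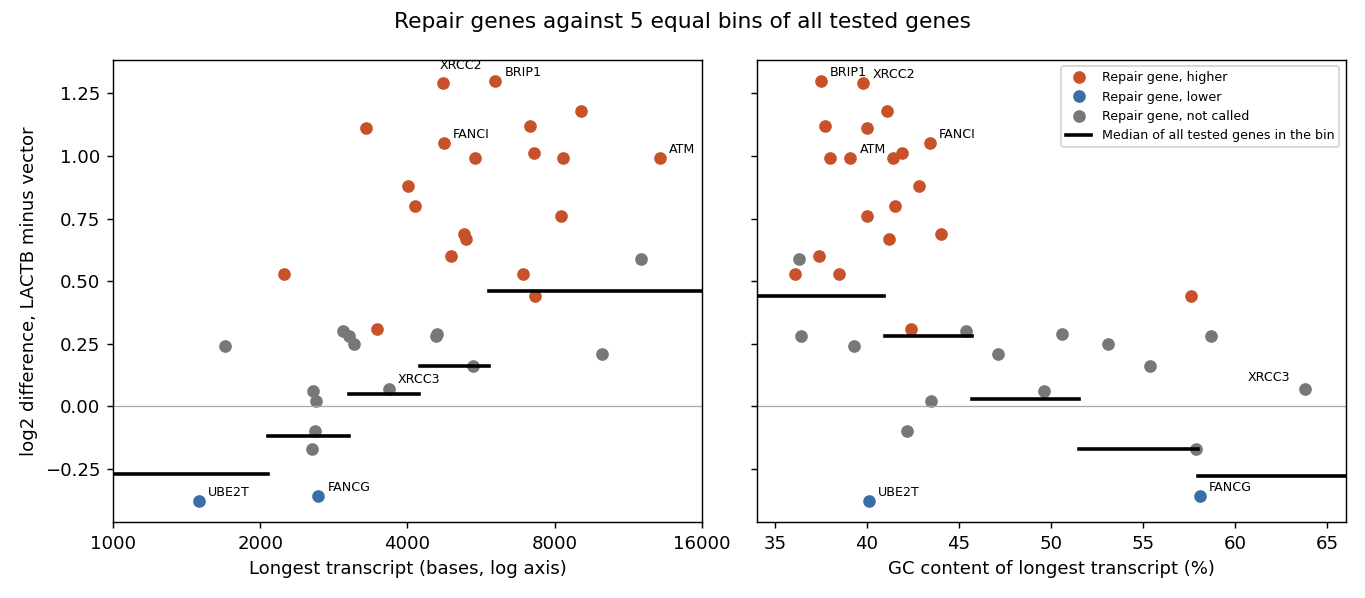
The log2 difference (LACTB minus vector) of the 36 tested repair genes against longest transcript length (left, log axis) and GC content (right), coloured by limma call, with black lines at the median of all tested genes in 5 equal bins (the outer bins run past the axes). The genes that rose have medians of 5378 bases and 40.5% GC, and 9 of the 11 repair genes in the longest bin rose.

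When a smooth trend on length and GC was removed from every library, the number of repair genes called higher stayed at 20 but 6 of the 20 were different genes. After removal 26.9% of all tested genes were called higher and 21.5% lower, the median over the repair genes was 0.31 and over all tested genes 0.06. Called both ways were 14 genes: BARD1, BRCA1, BRIP1, CHEK1, FANCD2, FANCI, FANCM, PALB2, POLQ, RAD50, RAD51AP1, RBBP8, SLX4 and XRCC2. ATM, ATR, BLM, EXO1, MRE11 and NBN lost their calls. The ATM difference became 0.27 and that of MRE11 0.01. ATRIP, CHEK2, FANCA, FANCC, RAD54L and XRCC3 gained one, with RAD54L at 0.47 and XRCC3 at 0.40. UBE2T was lower both ways, at -0.43 after removal, whereas FANCG moved to -0.02. Of the resection genes, RBBP8 (0.87) and RAD50 (0.45) were the ones called after removal.

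**Figure D3:**
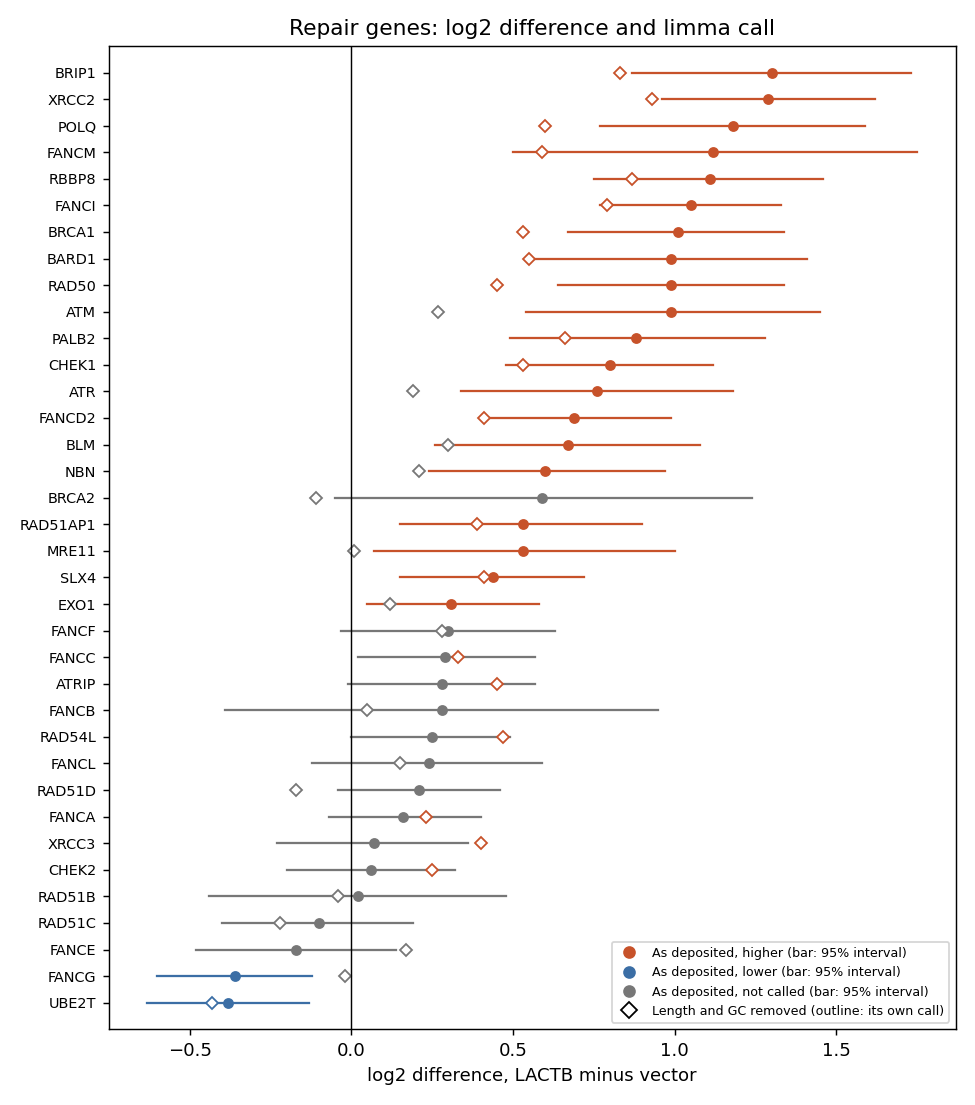
The log2 difference (LACTB minus vector) of each tested repair gene as deposited (filled circles, with 95% intervals) and with length and GC removed (open diamonds, outlined by their own call). BRIP1 and XRCC2 stand at the top as deposited and keep 0.83 and 0.93 after removal, while ATM, ATR and MRE11 move to 0.27, 0.19 and 0.01.

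The count of higher repair genes also moved with the scaling of the libraries. It was 16 after median centring, 15 with quantile normalization and 27 with equal column totals, beside 20.7%, 24.8% and 38.4% of all tested genes called higher under the same settings. The count of lower repair genes was 2 with median centring, 2 with quantile normalization (FANCG and FANCE) and 0 with equal column totals, beside 32.1%, 25.5% and 14.8% of all tested genes. Lost after median centring were EXO1, MRE11, RAD51AP1 and SLX4, and with quantile normalization these and NBN. Equal column totals shifted the median of all tested genes to 0.24, against 0.05 as deposited. The median of the repair genes lay above that of all genes by 0.48 as deposited, 0.49 after median centring, 0.48 with equal column totals, 0.33 with quantile normalization and 0.25 with length and GC removed. The same 12 genes were called higher under each of these and each other alternative that kept them: BARD1, BRCA1, BRIP1, CHEK1, FANCD2, FANCI, FANCM, PALB2, POLQ, RAD50, RBBP8 and XRCC2. Of these, FANCM passed the filter only through its LACTB values. Over the alternatives the difference of XRCC2 ranged from 0.93 to 1.48, that of FANCI from 0.79 to 1.24 and that of BRCA1 from 0.53 to 1.20. Both lower calls, FANCG and UBE2T, were lost with equal column totals (-0.17 and -0.19).

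**Figure D4:**
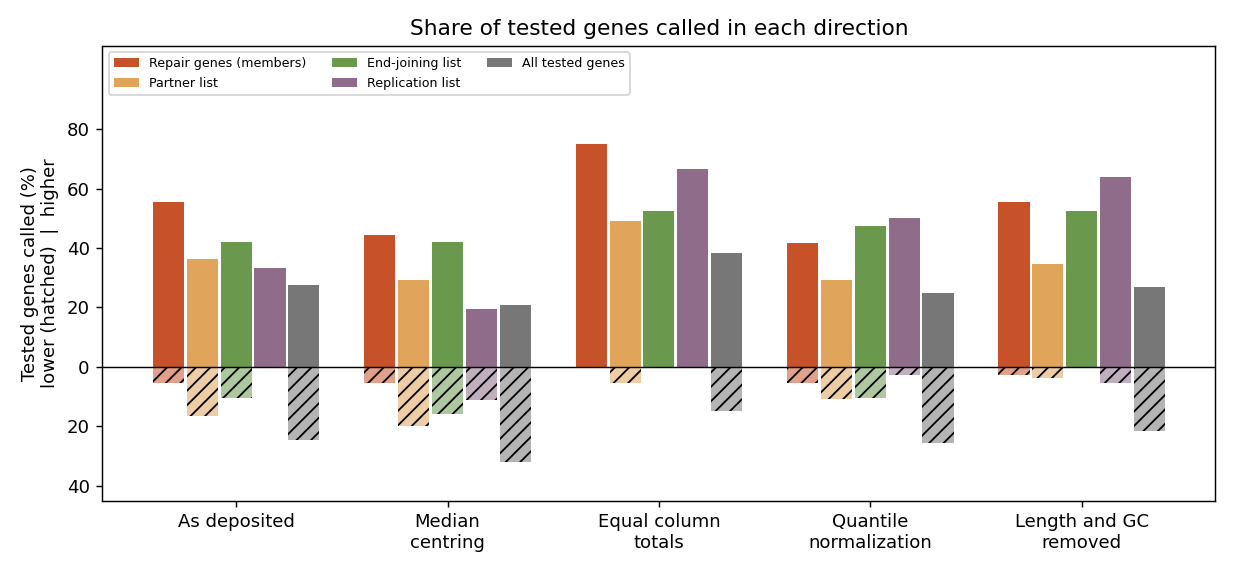
Percent of tested genes called higher (solid, above 0) and lower (hatched, below 0) in LACTB relative to vector cells, for the repair genes, the 3 context lists and all tested genes, under 5 ways of scaling. The repair genes stand above all tested genes on the higher side under each scaling, at 55.6% against 27.4% as deposited and 41.7% against 24.8% with quantile normalization.

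Other genes of the same processes were mixed in direction as deposited, and less so with length and GC removed. Of 55 tested partner genes of recombination, crosslink repair and damage signalling, 20 rose (36.4%) and 9 fell, with a median of 0.21. Among all tested genes 27.4% were called higher and 24.6% lower. USP1, the enzyme that removes ubiquitin from FANCD2, had 2109, 2220 and 1898 normalized counts in LACTB libraries, against 993, 1109 and 838 in vector libraries (log2 difference 1.09, limma adjusted p = 5.6e-07). CLSPN, which helps ATR activate CHEK1, rose by 1.09, FIGNL1, which takes part in recombination, by 1.16 and the helicase gene MCM8 by 0.77. Median centring gave 16 higher (29.1%) and 11 lower partner genes, beside 20.7% and 32.1% of all tested genes. Equal column totals gave 27 higher (49.1%) and 3 lower, beside 38.4% and 14.8%. Quantile normalization gave 16 higher (29.1%) and 6 lower, beside 24.8% and 25.5%. With length and GC removed 19 were higher (34.5%) and 2 lower, beside 26.9% and 21.5%.

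Genes of end joining, which seals breaks without a template, rose in 8 of 19 cases and fell in 2, beside 27.4% and 24.6% of all tested genes. With equal column totals 10 were higher (52.6%, beside 38.4% of all tested genes) and 0 lower. Length and GC removal also gave 10 higher and 0 lower, beside 26.9% of all tested genes called higher. The median was then 0.43 in this list and 0.31 in the repair genes. Median centring gave 8 higher (42.1%, beside 20.7%) and 3 lower, and quantile normalization 9 higher (47.4%, beside 24.8%) and 2 lower. TP53BP1, which restrains resection, rose by 1.20 (limma adjusted p = 2.7e-07), its effector RIF1 by 1.20, the kinase gene PRKDC by 0.98 and the ligase gene LIG4 by 1.27. Differences between this list and the repair genes were not tested.

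Of 36 replication and cell-cycle genes, 12 rose (33.3%, beside 27.4% of all tested genes) and 0 fell as deposited by limma, against 16 and 0 at an unadjusted p under 0.05. MKI67, a marker of cycling cells, had 8201, 9100 and 7902 normalized counts in LACTB libraries, against 1837, 3507 and 3407 in vector libraries. RRM1, a subunit of ribonucleotide reductase, rose by 0.82, E2F8, a repressor of the E2F family, by 0.91, and the topoisomerase gene TOP2A by 0.88. The list's count depended on the scaling, with 7 higher (19.4%, beside 20.7% of all tested genes) and 4 lower after median centring. Equal column totals gave 24 higher (66.7%, beside 38.4% of all tested genes) and 0 lower. Quantile normalization gave 18 higher (50%, beside 24.8%) and 1 lower. With length and GC removed 23 were higher (63.9%, beside 26.9%) and 2 lower. The part of these genes in the repair gene differences was not tested.

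Neighbouring genes were examined for shifts shared along a chromosome. With length and GC removed, the median difference of up to 50 tested genes on the same chromosome, 25 to each side, lay between -0.28 (around FANCD2) and 0.25 (around FANCF). FANCD2 was called higher at that negative neighbour median, and RAD50 was called higher at a neighbour median of -0.19. XRCC2 had 43 such neighbours with a median of 0.22, and CHEK1 had 0.22, both below the value of the gene itself. CHEK2 (0.25) lay close to its neighbour median of 0.21, FANCF (0.28) to 0.25 and ATM (0.27) to 0.18.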

How the data were processed

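The deposited table holds 1 signal value per gene and library, a read count that the authors normalized before deposit. The submitters' processing notes name HISAT2 and hg38. For the counter, annotation, strand setting and normalization, a statement was not given in the sources used here. Values were not whole. In the search for a step worth 1 read, 38.7% to 65.1% of low values per library came out whole (tolerance 0.05), so the test was made on log2 values. All 3 vector columns hold 22538 genes above 0, and the effect of the normalization on the spread is unknown.

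Values under 1e-10 were taken as 0, and of rows sharing a symbol (9 symbols) the higher was used. A gene was tested if it averaged 1 CPM or more, equal to 37.7 normalized counts at the mean column total. Differences of log2(value + 1), which understate the change of low genes, were tested two-sided by limma 3.58.1 (R 4.3.3; trend, robust, no covariates) and adjusted by Benjamini-Hochberg over every tested gene. The procedure was also run on simulated data. Annotation was GENCODE release 29 (GRCh38), with RefSeq for promoters. The trend on length and GC was a spline with 5 degrees of freedom for each. Alternatives covered scaling, pseudocount, filter, limma settings, replicate block and each library left out.

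The repair genes, context lists and markers were chosen with earlier results of these data known. All repair genes are named, and of each context list the 4 genes with the smallest adjusted p. One gene of a context list is counted there but not reported here.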

Additional observations from a re-analysis of the deposited data

How the results depend on the processing

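Higher genes were 52.7% of all calls as deposited, against 39.3% under median centring and 72.2% under equal column totals, so counts of higher genes are read beside those of all genes. The median difference of the repair genes was 0.53 as deposited, 0.72 with equal column totals, 0.34 with quantile normalization and 0.31 with length and GC removed. The 2 lower calls became 0 with equal column totals and 0 without limma's trend and robust settings, where 0 and 2 genes were lower at an unadjusted p under 0.05, and 1 with length and GC removed. Of all tested genes 14.8%, 22.1% and 21.5% were called lower under these settings, in that order. Leaving out 1 library gave 16 to 21 higher and 0 to 2 lower repair genes and medians of 0.46 to 0.63, with 0 lower without LACTB library 2 (1 at an unadjusted p under 0.05), 1 without LACTB library 3 and 1 without vector library 3. In these runs 19.6% to 26.8% of all tested genes were called lower. Both pseudocounts left all 36 calls on their side of the threshold, a filter at 5 CPM all 29 that it kept, and testing without a filter 34, with MRE11 and EXO1 lost. No difference called as deposited changed sign. FANCE, called lower with quantile normalization (-0.36), was 0.17 with length and GC removed. CHEK2 and XRCC3, called higher with length and GC removed (0.25 and 0.40), were each -0.07 after median centring. Except where a value is given, the cause of a lost call was not tested.

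The labels do not state whether same-numbered libraries were prepared together. Deviations from the group mean correlated at 0.023, 0.182 and 0.003 for same-numbered libraries 1, 2 and 3, and only those numbered 2 correlated best with each other. With 3 libraries per group, whose deviations sum to 0, these correlations cannot decide whether the libraries were paired. With the replicate block 20 repair genes were higher and 2 lower, beside 28.4% and 24.8% of all tested genes.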
